A study of Mus musculus with 6 samples.

Results

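Genes of mitosis and the cyclins were examined in liver tumours of mice that did or did not carry an AEG-1 transgene (AEG-1, astrocyte elevated gene-1, is encoded by Mtdh). The 38 listed members were matched to an Affymetrix expression array by the gene symbol of each probe set, the group of short probes that reads 1 transcript. Where a member had several, the brightest by the mean of the 6 arrays stood for it. In all, 36 of the 38 members were measured, of 12393 genes on the array, and they had 64 probe sets among 22626. Ccnb1 and Cdkn3, which encode cyclin B1 and a phosphatase that acts on cyclin-dependent kinases, had no probe set named for them alone and were not analysed here.

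The Alb/AEG-1 group was 3 liver tumours of male mice that carried the AEG-1 transgene, which was injected into embryos as a 5.3-kb DNA fragment of a construct named for Alb, the albumin gene that hepatocytes express. The wild-type group was 3 liver tumours of male mice without it. The mice of both groups had been given 1 intraperitoneal dose of the liver carcinogen N-nitrosodiethylamine (DEN), 10 µg per g, when 14 days old, and their tumours were taken at 28 weeks. The labels list CD-1 as the strain for both groups and B6CBAF1/J parents for the injected embryos, and do not say how many founder lines were used or whether any tissue was pooled. Each tumour had its own array, and the number of arrays limits the precision. Nothing in the labels besides a separate number in each title says how the 6 samples are related, so p-values measure the spread between these samples.

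Cell division is driven by cyclins, which switch on cyclin-dependent kinases in turn. D-type and E-type cyclins act in G1 and at entry into S phase, cyclin A in S phase and G2, and B-type cyclins in mitosis. The spindle checkpoint then holds the anaphase-promoting complex (APC/C) back until chromosomes are attached. Adult hepatocytes are mostly quiescent, and transcripts of the mitotic genes are low in resting liver and rise when hepatocytes re-enter the cycle, as after partial hepatectomy. Many mitotic genes share a pair of promoter elements, the cell cycle genes homology region (CHR), which DREAM and MMB-FOXM1 complexes bind, and CCAAT boxes, which NF-Y binds.

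The promoters of the members show these elements as written letters. RefSeq promoter windows of GRCm38.p6, from 250 bases before to 50 after a transcript start, were found for 30 of the 38 members, in 32 windows. The CHR was searched as TTTGAA or TTCGAA and the CCAAT box as CCAAT, each on both strands. TTCGAA reads the same on both strands and was counted once, and 0 CHR matches overlapped a CCAAT match in these windows. Of the 32 windows, 19 (59.4%) held a CHR match and all 19 of them held a CCAAT match too. Among the 12536 windows of array genes that were no member, 14.5% held a CHR match and 5.63% held both. CCAAT was in 25 member windows (78.1%) and in 37.0% of those other windows. Over all 32851 windows of the table the shares were 19.2% for CHR, 37.4% for CCAAT and 7.52% for both. A match is a description of the letters and not a shown binding site.

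The 250 bases before the start are given for the 4 fully described members with a CHR match and the smallest p in the comparison below, 5′ to 3′ on the strand of the gene. Capitals mark CHR and CCAAT matches on either strand, so that TTCAAA is the reverse of TTTGAA and ATTGG that of CCAAT. Ube2c lies at chr2:164769679-164769928 (plus strand), Top2a at chr11:99024190-99024439 (minus strand), Mki67 at chr7:135716380-135716629 (minus strand) and Ccnb2 at chr9:70421555-70421804 (minus strand).
Ube2c: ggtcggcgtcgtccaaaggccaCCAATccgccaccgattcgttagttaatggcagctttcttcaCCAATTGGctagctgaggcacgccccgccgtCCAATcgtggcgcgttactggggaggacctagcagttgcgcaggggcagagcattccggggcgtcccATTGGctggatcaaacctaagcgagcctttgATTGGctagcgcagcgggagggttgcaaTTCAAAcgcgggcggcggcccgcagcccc
Top2a: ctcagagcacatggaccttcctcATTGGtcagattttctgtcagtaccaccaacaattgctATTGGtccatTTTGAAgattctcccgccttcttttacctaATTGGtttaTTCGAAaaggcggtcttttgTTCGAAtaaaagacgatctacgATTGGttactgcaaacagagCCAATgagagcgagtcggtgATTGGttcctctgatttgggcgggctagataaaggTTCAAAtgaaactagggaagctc
Mki67: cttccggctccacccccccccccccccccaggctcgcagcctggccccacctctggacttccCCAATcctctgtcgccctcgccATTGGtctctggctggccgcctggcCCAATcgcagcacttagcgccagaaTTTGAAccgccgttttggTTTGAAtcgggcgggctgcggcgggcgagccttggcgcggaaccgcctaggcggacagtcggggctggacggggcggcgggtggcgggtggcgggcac
Ccnb2: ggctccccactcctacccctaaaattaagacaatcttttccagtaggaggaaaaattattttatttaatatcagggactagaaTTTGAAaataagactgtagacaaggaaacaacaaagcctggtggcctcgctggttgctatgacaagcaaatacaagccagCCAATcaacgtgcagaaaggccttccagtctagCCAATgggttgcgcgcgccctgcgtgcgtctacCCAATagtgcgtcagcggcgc

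Ube2c held 1 CHR match and 6 CCAAT matches there, of which 2 share letters in the run CCAATTGG. Top2a held 4 and 6, and Mki67 held 2 and 3. Ccnb2 held 1 and 3, and a second CHR match began at base 5 after its start. Among the 17 measured members with a CHR match, 13 had a positive difference (Alb/AEG-1 minus wild type), with a median of 0.13 log2. Among the 11 measured members whose windows held none, 8 did, with a median of 0.15. The difference between these sets of members was not tested.

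**Figure D1:**
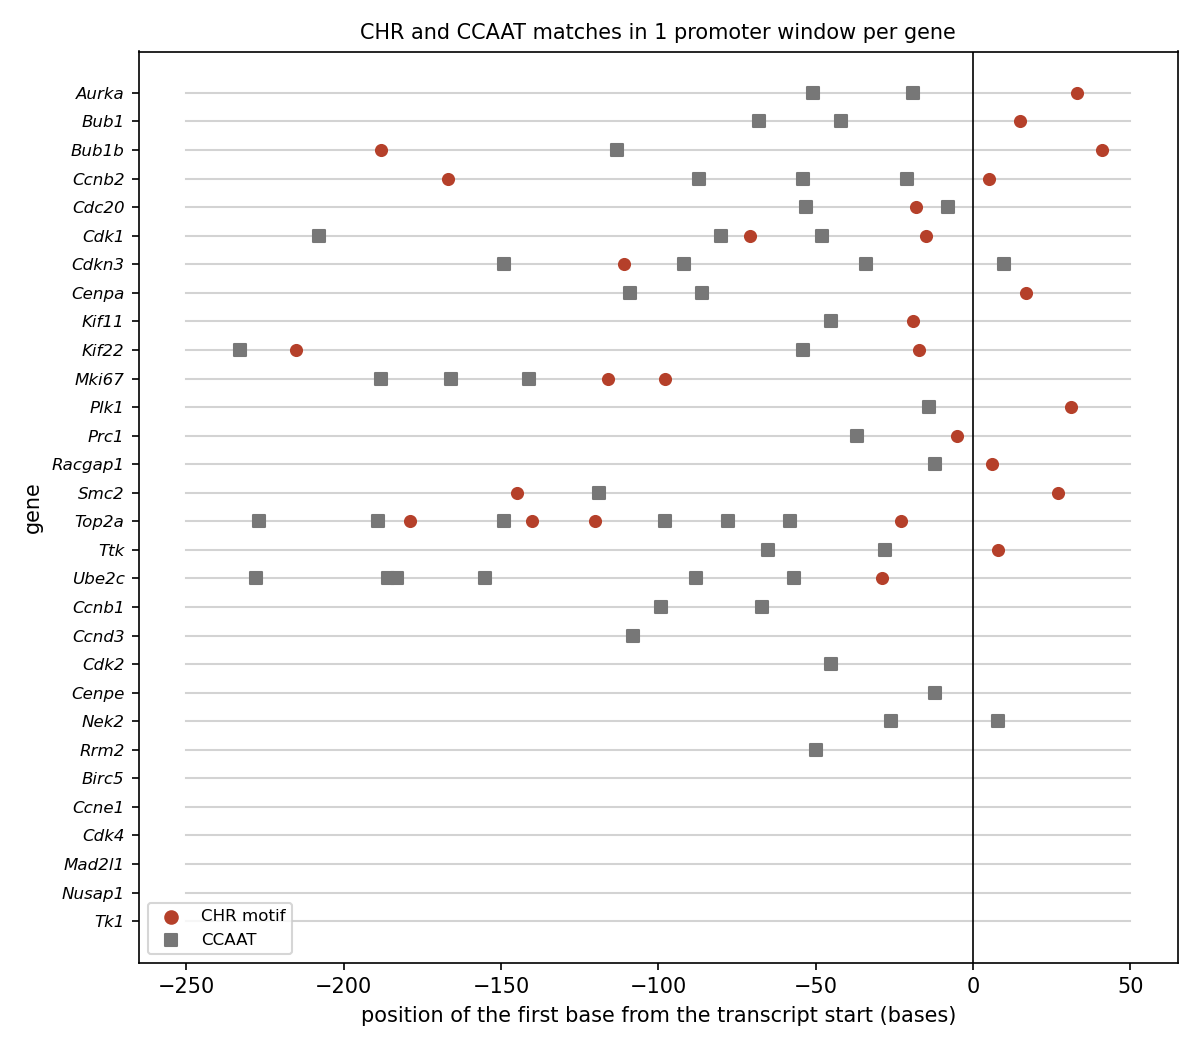
Positions of CHR (circles) and CCAAT (squares) matches in 1 promoter window of each of the 30 matched members, as the distance of the first base of a match from the transcript start in bases. Members with both elements stand at the top, and matches lie on both sides of the middle of the window.

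Most members lay in the lower part of the array's scale. Values are log2 expression levels made by the authors with RMA, a method that corrects background, equalizes the arrays and summarizes probes. The median probe set had a mean level of 5.83, and 25 of the 36 members lay below it, as did 5378 of all 12393 genes. The 11 members above the median were Ccnd1, Ccnd2, Ccnd3, Cdk1, Cdk2, Cdk4, Cdc20, Foxm1, Kif22, Rrm2 and Tk1. Mad2l1 lay just outside, at the 49.9th percentile, and Cdk1 just inside, at the 51.5th. Near the low end, RMA levels understate fold changes. Since each probe set has its own brightness, levels were not compared between genes. The levels come from bulk tissue, where fewer dividing cells and less RNA per cell cannot be told apart.

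No member passed an adjusted p of 0.05 over all probe sets, although 27 of 36 had a positive difference. The fit was limma's moderated test on 22626 probe sets with Benjamini-Hochberg adjustment, in which 0.00442% of probe sets (1 of them) passed. The members' adjusted p lay between 0.596 and 0.993. Their median difference was 0.15 log2 (quartiles 0.02 and 0.34), against -0.01 over all genes, of which 47.8% had a positive difference. At an unadjusted p below 0.05 there were 6 members, all higher in Alb/AEG-1 tumours, namely Ccna2, Ccnd1, Ube2c, Birc5, Top2a and Mki67. That is 16.7% of the members, beside 3.86% of all genes higher at this p (8.06% of probe sets in either direction). In the other direction there were 0 members by limma at this p, beside 4.47% of all genes. Leaving out wild-type replicate 3 gave 2 such higher members, leaving out Alb/AEG-1 replicate 2 gave 4 and leaving out Alb/AEG-1 replicate 1 gave 11. The 3.86% belongs to the fit of all arrays, and no share of all genes is given for these other fits.

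Differences on these arrays varied with the level of a gene. Of all genes below the median probe set 33.3% had a positive difference, with a median of -0.06 log2, and of those above it 58.9% had one, with a median of 0.03. Of the 25 members below the median 20 were positive, with a median of 0.15, and of the 11 above it 7 were, with a median of 0.11. In 8 members the groups were separated, with the lowest Alb/AEG-1 array above the highest wild-type one. These were Mki67, Top2a, Ccna2, Ccnd1, Cdk4, Nusap1, Cenpe and Ube2c. They make 22.2% of the members, beside 6.77% of all genes, and Cenpe lay at the 0.84th percentile of level. The opposite separation was found in 0 members by the brightest probe set, beside 8.31% of all genes.

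**Figure D2:**
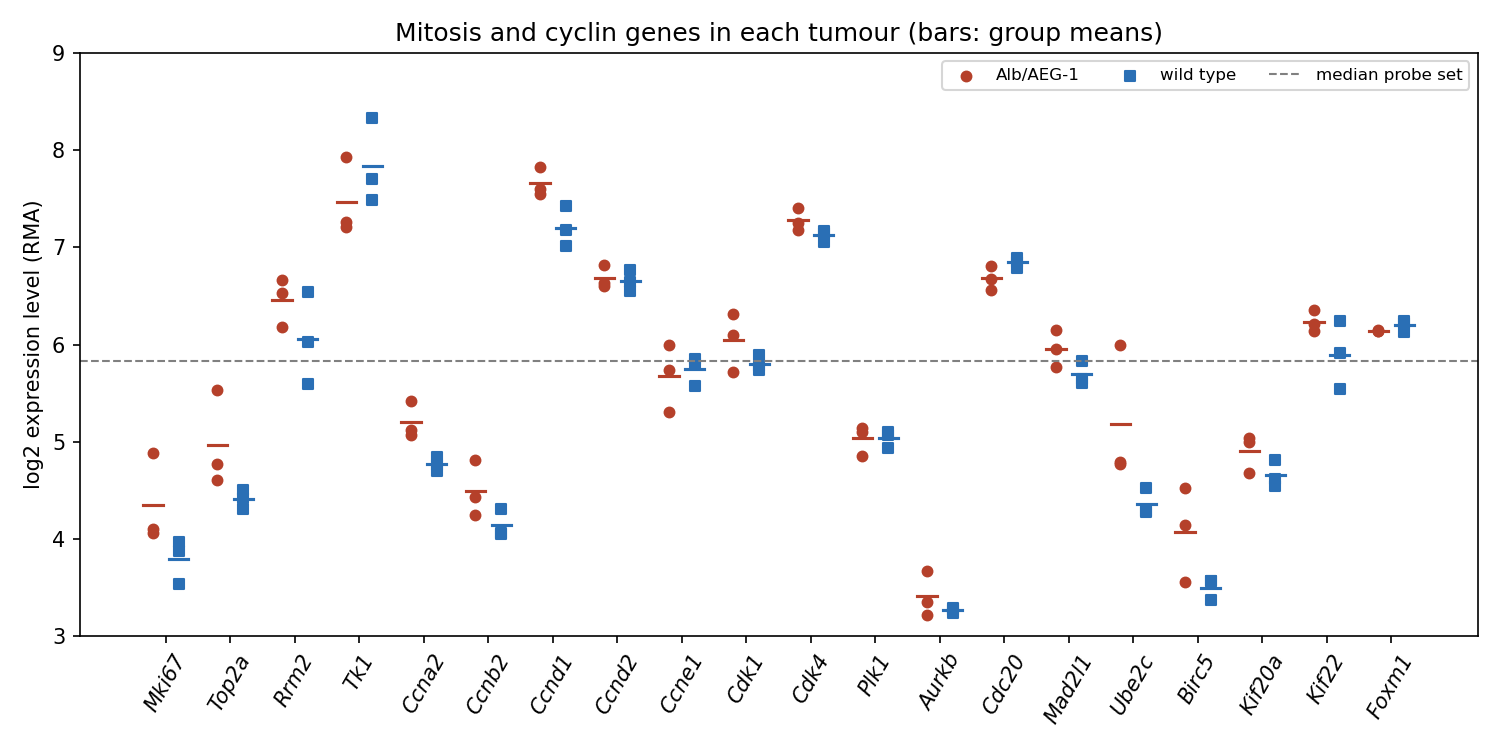
Log2 expression level (RMA) of the 20 fully described members on each array, with Alb/AEG-1 tumours as circles and wild-type tumours as squares, short bars for the means of 3 arrays and a dashed line for the median probe set (5.83). In Mki67, Top2a and Ube2c 1 Alb/AEG-1 tumour stands well above the other two.

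The proliferation and chromosome genes had the largest median difference of the roles, 0.40 log2 over 5 members. Mki67 encodes the Ki-67 protein that coats mitotic chromosomes and marks cycling cells. It was at 4.10, 4.88 and 4.06 in Alb/AEG-1 replicates 1 to 3, against 3.88, 3.97 and 3.53 in wild-type replicates 1 to 3. The groups did not overlap, but the high value of Alb/AEG-1 replicate 2 stood apart. The difference was 0.56 ± 0.23 log2 (SE, limma adjusted p = 0.616, 1.47-fold), and 0.29 without that array.

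Top2a, the topoisomerase that untangles sister chromatids, had the same shape. Its levels were 4.77, 5.53 and 4.60 in Alb/AEG-1 tumours, against 4.50, 4.43 and 4.31 in wild-type tumours. The difference was 0.56 ± 0.22 log2 (limma adjusted p = 0.614). Leaving out Alb/AEG-1 replicate 2 gave 0.28. A second Top2a probe set differed by -0.16 ± 0.12, so the gene's probe sets disagreed in sign.

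Rrm2 and Tk1 both supply nucleotides for DNA synthesis, Rrm2 as the small subunit of ribonucleotide reductase and Tk1 as a thymidine kinase, and their differences had opposite signs. Rrm2 was at 6.18, 6.67 and 6.53 in Alb/AEG-1 tumours, against 5.60, 6.54 and 6.03 in wild-type tumours, with a difference of 0.40 ± 0.24 log2. Leaving out wild-type replicate 1 gave 0.18, and leaving out wild-type replicate 2 gave 0.65. This Rrm2 probe set is of a type (x_at) open to cross-binding with related transcripts, and the other Rrm2 probe sets differed by 0.37 and -0.0077, so their signs were mixed. Tk1 was at 7.21, 7.26 and 7.93 in Alb/AEG-1 tumours, against 7.49, 8.33 and 7.71 in wild-type tumours, with a difference of -0.37 ± 0.26. It was -0.13 without wild-type replicate 2, -0.25 without Alb/AEG-1 replicate 1 and -0.61 without Alb/AEG-1 replicate 3. In both genes the groups overlapped, and the wild-type spread was wide (SD 0.47 for Rrm2 and 0.43 for Tk1, n = 3). Smc2, a condensin subunit, differed by 0.29 ± 0.19 with overlapping groups, and by 0.10 without Alb/AEG-1 replicate 2.

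Among the cyclins, Ccna2 and Ccnd1 separated the groups and the E-type cyclins did not differ beyond their spread. Ccna2, which encodes cyclin A2 of S phase and G2, was at 5.12, 5.42 and 5.07 in Alb/AEG-1 tumours, against 4.70, 4.84 and 4.76 in wild-type tumours. Its 3 Alb/AEG-1 values lay above the wild-type range, replicate 2 the highest, with a wider spread (SD 0.19) than the wild-type values (SD 0.07, n = 3 each). The difference of 0.44 ± 0.11 log2 had the smallest p of the members (limma unadjusted p = 0.00524, adjusted p = 0.596), and it was 0.33 without Alb/AEG-1 replicate 2. A dimmer Ccna2 probe set differed by 0.24 ± 0.14 with overlapping groups.

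Ccnd1, which encodes cyclin D1 of the G1 phase, was at 7.55, 7.83 and 7.60 in Alb/AEG-1 tumours, against 7.01, 7.43 and 7.18 in wild-type tumours. By the brightest probe sets it was the only member above the median probe set with an unadjusted p below 0.05. The difference was 0.46 ± 0.13 log2 (limma adjusted p = 0.596, 1.37-fold). Its dimmer probe sets differed by 0.41 ± 0.14 and 0.10 ± 0.18, all in the same direction.

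Ccnb2, a cyclin of mitosis, was at 4.24, 4.82 and 4.43 in Alb/AEG-1 tumours, against 4.31, 4.07 and 4.05 in wild-type tumours. The groups overlapped, with a difference of 0.36 ± 0.15 log2 that was 0.20 without Alb/AEG-1 replicate 2. The other D-type cyclins stood nearer to 0. Ccnd2 was at 6.82, 6.60 and 6.63 in Alb/AEG-1 tumours, against 6.55, 6.76 and 6.64 in wild-type tumours, and its 7 probe sets differed by -0.22 to 0.13. Ccnd3 differed by -0.07 ± 0.10.

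The E-type cyclins, which start S phase with Cdk2, had small negative differences. Ccne1 was at 5.31, 6.00 and 5.73 in Alb/AEG-1 tumours, against 5.57, 5.81 and 5.85 in wild-type tumours. Its difference of -0.07 ± 0.18 log2 was well within the spread, and it was 0.12 without Alb/AEG-1 replicate 1. Ccne2 differed by -0.13 ± 0.23 log2.

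The kinases and phosphatases had small differences, positive in 7 of 8 with a median of 0.13 log2, and in 6 of 8 without Alb/AEG-1 replicate 2. Cdk1, the kinase that cyclin B activates for mitosis, was at 5.72, 6.31 and 6.10 in Alb/AEG-1 tumours, against 5.89, 5.74 and 5.78 in wild-type tumours. Alb/AEG-1 replicate 1 was the lowest of the 6, so the groups overlapped, and the difference of 0.24 ± 0.15 was 0.11 without Alb/AEG-1 replicate 2 and 0.40 without replicate 1. Cdk4, the partner of D-type cyclins, was at 7.18, 7.40 and 7.25 in Alb/AEG-1 tumours, against 7.17, 7.05 and 7.14 in wild-type tumours. Those groups did not overlap by a narrow margin, with a difference of 0.15 ± 0.09 (0.09 without Alb/AEG-1 replicate 2). The dimmer Cdk4 probe sets, also above the median probe set, differed by 0.28 ± 0.10 and 0.41 ± 0.12. Both separated the groups, with limma unadjusted p of 0.0237 and 0.0115.

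Plk1, a kinase of mitotic entry and spindle formation, had the difference nearest to 0. It was at 5.10, 5.14 and 4.86 in Alb/AEG-1 tumours, against 4.94, 5.07 and 5.10 in wild-type tumours, a difference of -0.0041 ± 0.10 log2. Aurkb, the kinase of the chromosomal passenger complex, was at 3.35, 3.67 and 3.22 in Alb/AEG-1 tumours, against 3.27, 3.29 and 3.24 in wild-type tumours. Only Alb/AEG-1 replicate 2 stood clear of the rest, and the difference of 0.15 ± 0.12 was 0.02 without it. The S phase kinase gene Cdk2 differed by 0.11 ± 0.10, the centrosome kinase genes Nek2 and Aurka by 0.14 ± 0.09 and 0.10 ± 0.17, and Cdc25c, a phosphatase that activates Cdk1, by 0.11 ± 0.12. All 4 overlapped between groups.

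**Figure D3:**
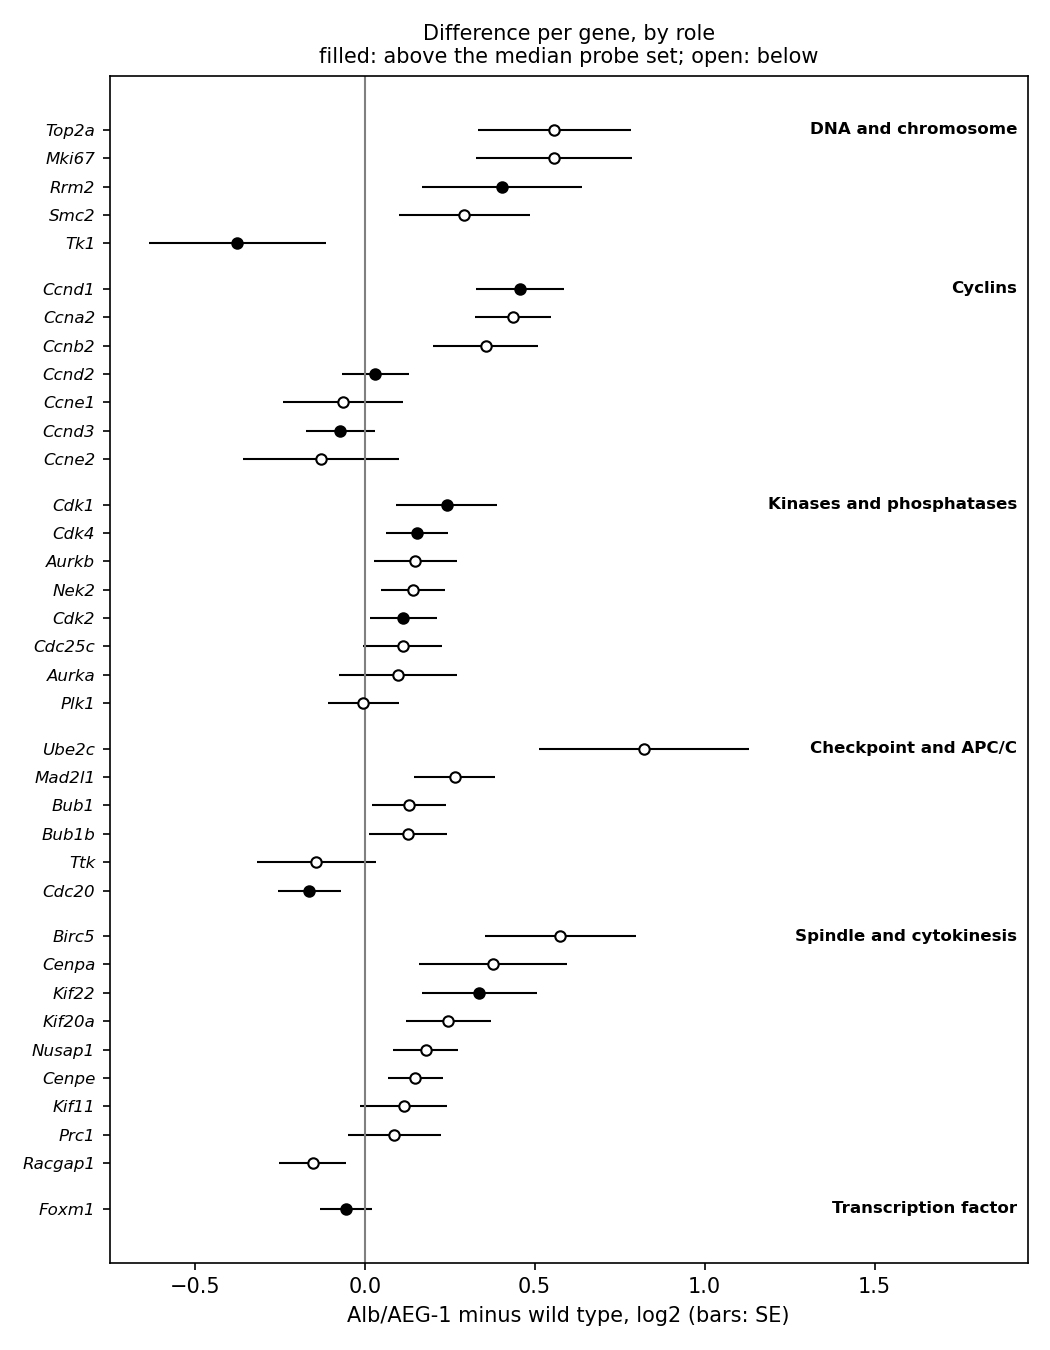
Difference between Alb/AEG-1 and wild-type tumours (log2, horizontal bars for the SE of limma's fit on 3 arrays per group) for the 36 measured members, by role. Filled points lie above and open points below the median probe set. The points run from -0.37 for Tk1 to 0.82 for Ube2c, with 27 of 36 right of 0.

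In the spindle checkpoint and the APC/C, Ube2c had the largest difference of any member and Cdc20 depended on the probe set. Ube2c encodes the ubiquitin-conjugating enzyme of the APC/C. It was at 4.77, 5.99 and 4.79 in Alb/AEG-1 tumours, against 4.52, 4.28 and 4.29 in wild-type tumours. The groups did not overlap, and Alb/AEG-1 replicate 2 lay more than 1 log2 above every other array. The difference was 0.82 ± 0.31 log2 (1.77-fold, limma adjusted p = 0.611), and 0.42 without that array. It was the 1 member with a difference of at least 1.5-fold.

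Cdc20, the activator of the APC/C, was at 6.56, 6.68 and 6.81 in Alb/AEG-1 tumours, against 6.85, 6.79 and 6.89 in wild-type tumours by its brightest probe set, also of the x_at type. That difference was -0.16 ± 0.09 log2. The other probe sets had the opposite sign. One of the same type was at 5.78, 5.98 and 5.75 in Alb/AEG-1 tumours, against 5.76, 5.19 and 4.75 in wild-type tumours, a difference of 0.60 ± 0.23. The third, not of this type, differed by 0.29 ± 0.17.

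Of the checkpoint proteins, Mad2l1, which inhibits Cdc20, was at 5.76, 6.15 and 5.96 in Alb/AEG-1 tumours, against 5.65, 5.83 and 5.61 in wild-type tumours. The groups overlapped in 1 value, with a difference of 0.26 ± 0.12 log2 that was 0.17 without Alb/AEG-1 replicate 2. The kinetochore checkpoint genes Bub1 and Bub1b differed by 0.13 ± 0.11 each, and by 0.06 and 0.0087 without that array. The checkpoint kinase gene Ttk differed by -0.14 ± 0.17, and its Alb/AEG-1 replicate 3 was the lowest of the 6 arrays.

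Genes of the spindle, kinetochore and cytokinesis were positive in 8 of 9, with a median of 0.18 log2. Birc5 encodes survivin of the chromosomal passenger complex. It was at 3.56, 4.53 and 4.15 in Alb/AEG-1 tumours, against 3.56, 3.37 and 3.57 in wild-type tumours. Alb/AEG-1 replicate 1 lay within the wild-type range and the other two lay above it. The difference was 0.58 ± 0.22 (limma adjusted p = 0.611). Leaving out Alb/AEG-1 replicate 2 gave 0.35.

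The kinesins Kif20a, needed for cytokinesis, and Kif22, which pushes chromosome arms, had overlapping groups. Kif20a was at 5.00, 5.03 and 4.68 in Alb/AEG-1 tumours, against 4.81, 4.54 and 4.62 in wild-type tumours (0.25 ± 0.12). Kif22 was at 6.21, 6.35 and 6.14 in Alb/AEG-1 tumours, against 6.24, 5.55 and 5.91 in wild-type tumours (0.34 ± 0.17, and 0.16 without wild-type replicate 2). This Kif22 probe set is also of the x_at type. A dimmer one, also open to cross-binding, differed by 0.38 ± 0.10 without overlap, and the third by -0.05 ± 0.12.

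Nusap1, a microtubule-binding spindle protein, and Cenpe, a kinetochore motor, separated the groups with small differences of 0.18 ± 0.10 and 0.15 ± 0.08 log2. Cenpe was at 2.46 to 2.75 on the 6 arrays, near the lowest levels measured (0.84th percentile), where a difference says little. A second Nusap1 probe set differed by -0.08 ± 0.12 with overlapping groups. Cenpa, the histone of centromeres, differed by 0.38 ± 0.22 (0.14 with Alb/AEG-1 replicate 2 left out) and Kif11, the motor that separates spindle poles, by 0.11 ± 0.13. The dimmer Kif11 probe sets differed by -0.11 ± 0.07, with every Alb/AEG-1 value below the wild-type ones, and by 0.03 ± 0.09. The midzone protein gene Prc1 differed by 0.09 ± 0.14. Racgap1, of the central spindle, differed by -0.15 ± 0.10, and by 0.24 ± 0.10 in its dimmer probe set.

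Foxm1, the transcription factor that drives many G2 and mitotic genes, had overlapping groups. It was at 6.16, 6.14 and 6.14 in Alb/AEG-1 tumours, against 6.13, 6.22 and 6.24 in wild-type tumours, a difference of -0.06 ± 0.08 log2. The differences of its other 3 probe sets were 0.01, -0.19 and 0.03. Over all members with more than 1 probe set, every probe set was positive in 6 of 15 members (Aurkb, Bub1, Ccna2, Ccnd1, Cdk4 and Prc1), in 0 every one was negative and in 9 the signs were mixed. Of all 64 member probe sets, 46 were positive and 18 negative. In 7 members the brightest probe set was of a type open to cross-binding (x_at or s_at). These were Rrm2, Cdc20, Kif22, Ccnd2, Cdk4, Aurkb and Prc1, and Aurkb had no probe set of another type.

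The 3 Alb/AEG-1 tumours were not alike in these genes. Alb/AEG-1 replicate 2 was the highest of the 6 arrays in 26 of the 36 members (72.2%), while it was the highest in 15.8% of all genes. Alb/AEG-1 replicates 1 and 3 were the highest in 4 and 0 members, and wild-type replicates 1, 2 and 3 in 0, 2 and 4. Against the wild-type mean, the median member was 0.32 log2 higher in Alb/AEG-1 replicate 2, 0.07 in replicate 1 and 0.13 in replicate 3. The same medians over all genes were -0.0055 for replicate 2, -0.0083 for replicate 1 and -0.0037 for replicate 3. Values above every wild-type value were found in 26 members in Alb/AEG-1 replicate 2, 14 in replicate 1 and 18 in replicate 3, where all genes gave 25.7%, 26.6% and 24.4%. These counts describe 3 single tumours and carry no test. Whether a property of that array had a part in this was not tested, and RMA sets the arrays to near-equal medians.

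Without Alb/AEG-1 replicate 2, the median difference of the members was 0.10 log2 and 24 of 36 were positive, beside a median of -0.0037 and 6094 of 12393 over all genes. In Ccna2, Ccnd1, Top2a and Ube2c the unadjusted p stayed below 0.05 by limma in that fit. In Aurka, Kif11 and Prc1 the difference was negative without that array, at -0.08, -0.02 and -0.0045. In 25 of the 36 members the SD of the Alb/AEG-1 values was larger than that of the wild-type values (69.4%, beside 49.2% of all genes).

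**Figure D4:**
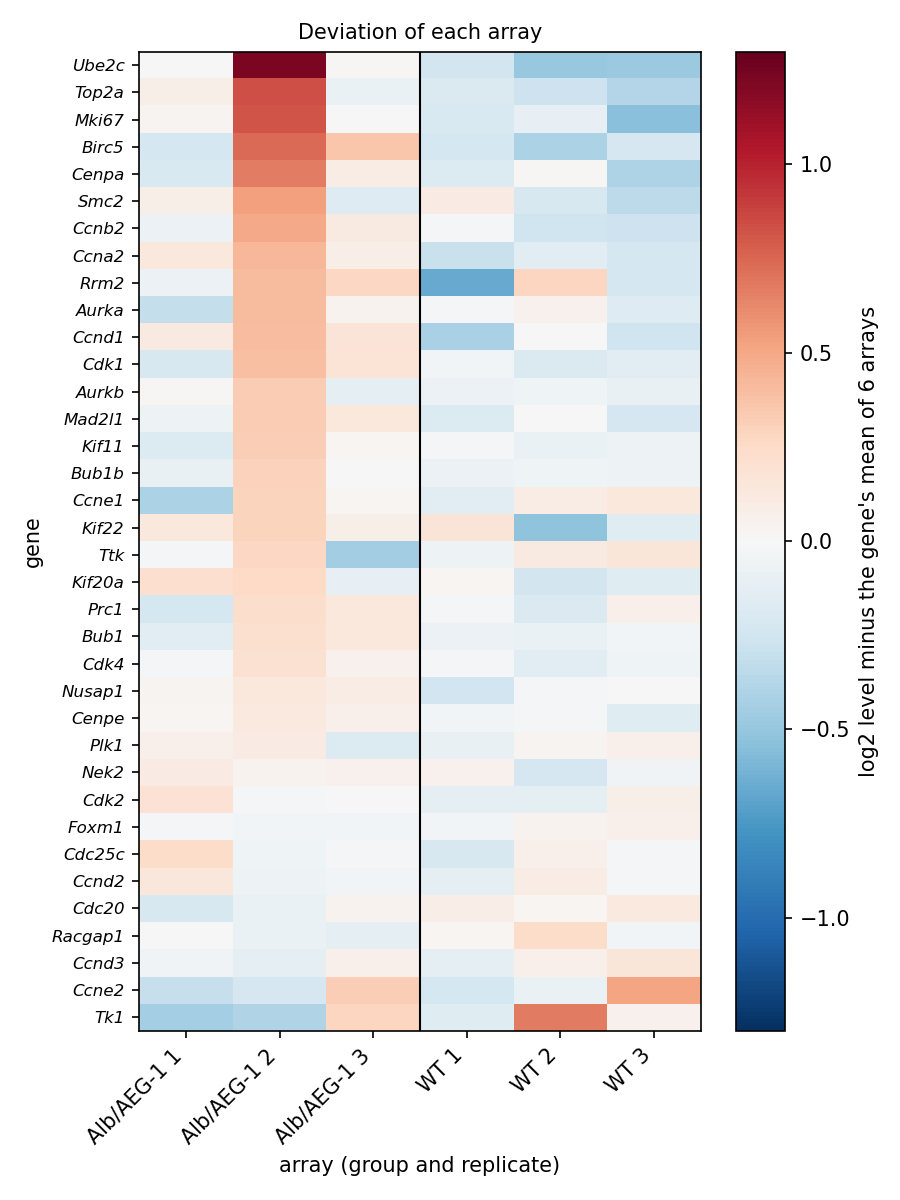
Deviation of each array from the mean of its gene over 6 arrays (log2, red higher, blue lower) for the 36 members, with the Alb/AEG-1 arrays left of the line and the wild-type arrays right of it. Alb/AEG-1 replicate 2 is the highest array in 26 members, led by Ube2c, Top2a, Mki67 and Birc5, and Tk1 runs the other way.

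The numbers in the sample titles fall into a lower range (Alb/AEG-1 replicates 1 and 2 and wild-type replicate 1) and a higher one (Alb/AEG-1 replicate 3 and wild-type replicates 2 and 3). The labels do not say that the ranges mark a batch. Within the lower numbers 32 of the 36 members were positive, with a median difference of 0.18 log2, and within the higher numbers 25 were, with a median of 0.11. Of all 12393 genes 6078 and 6014 were positive there, with medians of -0.0037 and -0.0078. In 24 members both were positive, beside 3194 of all genes. Each range rests on a single array in 1 group, wild-type replicate 1 or Alb/AEG-1 replicate 3. The lower one holds Alb/AEG-1 replicate 2, the highest array in 26 members. With the range as a term the median was 0.13, and 3 members had an unadjusted p below 0.05 by limma, namely Ccna2, Ccnd1 and Rrm2. The share of all genes in that fit is not given. Ccna2 differed by 0.57 within the lower numbers and 0.27 within the higher ones, and Mki67 by 0.62 and 0.31. Plk1 turned sign, at 0.18 and -0.23.

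Other genes of the cycle were taken from lists, and 0 genes of any of these lists passed over all probe sets by limma. Of 36 measured mitotic genes that were not members 25 were positive, with a median of 0.04 log2. The median was 0.0073 without Alb/AEG-1 replicate 2, -0.0051 within the lower title numbers, and 0.30 over the 10 genes left when dim probe sets were left out. By unadjusted p under 0.05, 3 of them (8.33%) had higher and 0 had lower values. Over all genes 3.86% were higher and 4.47% lower at this p. The first 4 by p were Cks1b, a subunit that binds cyclin-dependent kinases, Stmn1, a protein that destabilizes microtubules, Spc25 of the kinetochore, and Incenp of the passenger complex. Cks1b was at 9.64, 9.46 and 8.92 in Alb/AEG-1 tumours, against 8.68, 8.18 and 8.21 in wild-type tumours. Its highest array was Alb/AEG-1 replicate 1, and its difference of 0.98 ± 0.21 log2 was larger than that of any member. Stmn1, by a probe set open to cross-binding, differed by 0.43 ± 0.15 (0.28 without Alb/AEG-1 replicate 2). Spc25 differed by 0.50 ± 0.18, and Incenp by -0.23 ± 0.10, though 2 of the 3 Incenp probe sets were positive. The mean level of this list was highest in Alb/AEG-1 replicate 2, at 5.50 against 5.15 to 5.37 on the other arrays.

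Of 21 S phase genes 18 were positive, with a median of 0.14 log2. By unadjusted p under 0.05 there were 5 with higher (23.8%) and 0 with lower values, beside 3.86% and 4.47% of all genes. The first 4 were the replication helicase genes Mcm6 (0.51 ± 0.14), Mcm2 (0.22 ± 0.09) and Mcm7 (0.38 ± 0.16) and Dut, which keeps uracil out of DNA (0.36 ± 0.11). Mcm6 differed by 0.36 without Alb/AEG-1 replicate 2. That array had the highest mean level of the list, at 5.84 against 5.57 to 5.77 on the others. The Mcm2 and Mcm7 probe sets are of the s_at type open to cross-binding, and the Mcm7 groups overlapped. Of the 2 Dut probe sets only 1 was positive. Of 20 regulators such as E2F factors and DREAM subunits 14 were positive, with a median of 0.07. At that p 2 (10%) were higher and 1 (5%) lower, beside the same shares of all genes, 3.86% and 4.47%. Ccng2, an atypical cyclin linked to cell cycle exit, differed by -0.51 ± 0.14 without overlap. Lin37, a DREAM subunit, differed by 0.34 ± 0.12, Cdk7, the kinase that activates other cyclin-dependent kinases, by 0.29 ± 0.10 and the repressor gene E2f6 by 0.15 ± 0.09. Of the 2 Cdk7 probe sets only 1 was positive.

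Of 17 inhibitors of the cycle 7 were positive and 10 negative, with a median of -0.05 log2. At that p 3 (17.6%) were higher and 2 (11.8%) lower, beside 3.86% and 4.47% of all genes. Cdkn2b, which encodes the Cdk4 and Cdk6 inhibitor p15, was at 4.80, 6.59 and 5.37 in Alb/AEG-1 tumours, against 4.78, 4.61 and 4.37 in wild-type tumours. It was highest in Alb/AEG-1 replicate 2, like most members, and differed by 1.004 ± 0.402 (0.50 without that array). The antiproliferative gene Btg2 differed by 0.90 ± 0.32 with overlapping groups. Pkmyt1, a kinase that inhibits Cdk1, differed by -0.30 ± 0.11 and Gadd45b, a stress-induced gene, by -0.34 ± 0.14.

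**Figure D5:**
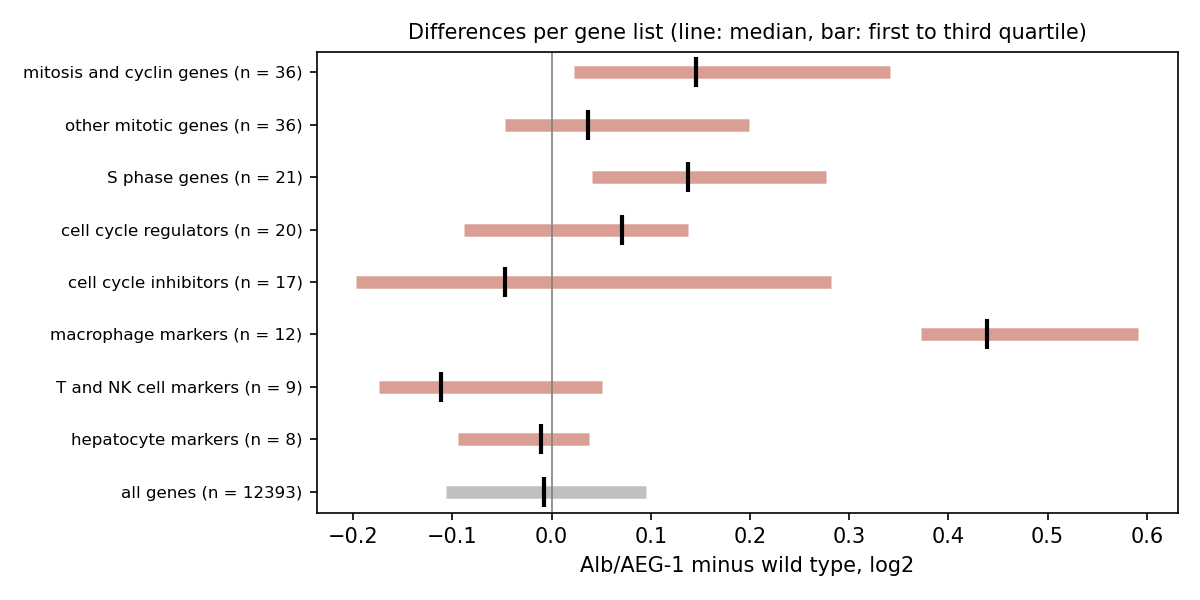
Differences between Alb/AEG-1 and wild-type tumours (log2) in gene lists of the cycle, in 3 marker lists and over all genes, with a line for the median and a bar from the first to the third quartile. The members (median 0.15) and S phase genes (0.14) lie right of all genes (-0.01), and the macrophage markers (0.44) lie farthest right.

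Markers of hepatocytes were bright on all arrays, with mean levels of 13.57 to 13.63 in both groups over 8 markers (Alb and Ttr foremost), as the liver label calls for. Markers of macrophages had differences of the same sign as most members. All 12 were positive, with a median of 0.44 log2, and their mean level was 7.35, 7.68 and 7.95 in Alb/AEG-1 tumours, against 7.40, 6.99 and 7.09 in wild-type tumours. Within the lower title numbers 6 markers were positive, with a median of 0.04 (members 0.18). Within the higher ones 12 were, with a median of 0.87 (members 0.11). Of the brightest, Mpeg1, which encodes a pore-forming protein of macrophages, was at 9.04, 10.05 and 9.42 in Alb/AEG-1 tumours, against 8.83, 8.36 and 8.63 in wild-type tumours, highest in replicate 2 like most members. Cd5l, a protein that macrophages secrete, was at 8.94, 9.20 and 9.56 in Alb/AEG-1 tumours, against 8.93, 8.58 and 8.57 in wild-type tumours, highest in replicate 3. The mean level of the 11 members above the median probe set was 6.68, 6.80 and 6.81 in Alb/AEG-1 tumours. It was 6.59, 6.73 and 6.68 in wild-type tumours. Alb/AEG-1 replicates 2 and 3 were near-equal there, with Tk1 at 7.26 and 7.93 in them. Over all 36 members the mean was 4.96, 5.28 and 5.05 in Alb/AEG-1 tumours, highest in replicate 2. In 0 members was replicate 3 the highest array. Of 9 measured T and NK cell markers 3 were positive (median -0.11), of 5 B and plasma cell markers 3 (0.11, highest in Alb/AEG-1 replicate 2 with a mean of 4.88), and of 5 bile duct markers 3 (0.03, also highest in Alb/AEG-1 replicate 2, at 4.70 against 4.42 to 4.49 on the other arrays). The brightest of these lists were Cd3e and Cd4 (differences of -0.14 and -0.11), Jchain and Cd79a (0.70 and 0.11), and Sox9 and Krt19 (0.37 and -0.03). Of the 2 Cd4 probe sets 1 was positive. Endothelial and stellate cell markers were positive in 4 of 8 each and erythroid markers in 2 of 4. Their brightest were Clec4g and Kdr (-0.16 and -0.02), Dcn and Col3a1 (-0.0046 and 0.39), and Alas2 and Klf1 (0.08 and 0.09). Which cells the transcripts of the members come from, and the part of other cell types in the differences, was not tested.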

How the data were processed

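Total RNA of 6 liver tumours was made into biotin-labelled cRNA (5 µg of RNA an array), per the labels' protocols. RMA is named, without a version, per the submitters' processing notes, so the deposited values are log2 levels made by the authors with background correction, quantile normalization and probe set summary. RMA assumes that most genes are alike between arrays. The 64 control probe sets of 22690 were left out. Of the 22626 tested, 20380 had 1 platform symbol, 691 several and 1555 none. Symbols were updated through gene IDs against RefSeq genes of GRCm38.p6 (20351 matched).

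The contrast of Alb/AEG-1 minus wild type was fitted over all probe sets with limma 3.58.1 in R 4.3.3 (lmFit, eBayes, 2-sided, 7.53 degrees of freedom), without covariates. The members, lists and tests were chosen with earlier results of these data known. Members with values in full were fixed by name (16 measured) or were among the 10 smallest p; each cycle list named its 4 smallest p, and each cell type list its 2 brightest genes. The other members are given in short. The fit was tested on simulated data. Alternatives were 9 settings of the fit and 6 arrays left out in turn. Plots used matplotlib 3.10.9 in Python 3.11.15.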

Additional observations from a re-analysis of the deposited data

How the results depend on the processing

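No member passed an adjusted p of 0.05 by limma under any of the 15 alternatives, and the smallest adjusted p of a fully described member was 0.345. The count of members higher at an unadjusted p below 0.05 was 6. It was 1 with dim probe sets left out, which left 11 members, 3 with the title number range as a term, 9 after repeated quantile normalization, 8 after median centring, and 6 to 7 with trend or robust moderation, array weights, cross-binding probe sets left out or the mean of all probe sets. With 1 array left out it was 2 (no wild-type replicate 3) to 11 (no Alb/AEG-1 replicate 1). The count lower at that p was 0 to 1 with 1 array left out. The count with separated groups was 8, 2 with dim probe sets left out, 6 by the mean of all probe sets of a gene, 9 after either normalization, and 9 to 17 with 1 array left out, where fewer arrays have to separate. No share of all genes is given for these alternatives, so a change in the members cannot be told from one across the whole array. The median difference over members stayed positive, at 0.10 to 0.21 log2 with 1 array left out. The median of the inhibitor list, -0.05, was 0.02 leaving out Alb/AEG-1 replicate 2, and 0.03 and 0.05 leaving out wild-type replicates 1 and 2. Of the 20 fully described members 5 turned sign under some alternative. Plk1 was at 0.030 after repeated quantile normalization, 0.0084 after median centring and 0.0016 with array weights, and ranged from -0.059 to 0.084 with 1 array left out. Ccnd2 was at -0.0075 after repeated quantile normalization, -0.061 with cross-binding probe sets left out and -0.0092 as the mean of its probe sets, and ranged from -0.035 to 0.087 with 1 array left out. Ccne1 ranged from -0.22 to 0.12 with 1 array left out. Cdc20 was at 0.24 as the mean of its probe sets. With cross-binding probe sets left out, Cdc20 was at 0.29 and Kif22 at -0.045, where another probe set stands for the gene. That holds for Ccnd2 in that setting too. For Plk1, Ccne1 and the other sign changes of Ccnd2 the cause was not tested. No paired analysis was possible because the labels give the groups no shared replicate numbers. Low signal limits what the 25 members below the median probe set can show.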

Other observations

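By a rule of likeness, the 7004 non-member genes above the median probe set were compared with the mean of the 11 members above it over the 6 arrays. By Pearson correlation, given as a description, the 5 most alike were Otud5 (0.972), Pus10 (0.970), Id1 (0.959), Il10rb (0.954) and Lcmt2 (0.951). With 6 arrays from 2 groups and so many genes, high likeness arises easily, and no function or control is read from it.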
